A study of Rattus norvegicus with 24 samples.

Results

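Hk1, Aldoa and Ldhb, 3 genes of glucose breakdown, were followed in rat kidney across the SS and SS-13BN/Mcw strains and both times after a change of salt intake. They were chosen by gene symbol, with their log ratios over the 4 groups in view, and each was read by 1 probe with a value on all 24 arrays (probe 407 for Hk1, 179 for Aldoa and 98 for Ldhb). They are 3 of 1426 measured probes with 1 gene symbol, among 1766 probes with a value on at least 1 array. The annotation gives each gene 1 more probe, and those 3 held no value. Because the choice used these values, the levels of the 3 genes are given as a description with no test of their own.

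SS is the Dahl salt-sensitive rat, an inbred model of hypertension on high salt, and SS-13BN/Mcw is a consomic strain in which chromosome 13 comes from the Brown Norway rat and the remaining genome from SS. Total RNA of rat kidney, with no region of the organ named in the labels, was compared on 2-colour arrays between 2 rats of the same strain, read here as one on low and one on high salt from the LS and HS of the labels. The groups were SS at 3 days, SS-13BN/Mcw at 3 days, SS overnight and SS-13BN/Mcw overnight, with 3 rat pairs each and 2 arrays with exchanged dyes per pair. Sex, age and diet composition are not in the labels. Within a strain, rat numbers 1 to 3 recur in the labels at 3 days and overnight, so values of the 2 times appear to share those animals and were not independent.

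All values are log ratios in the deposited units. Their base and numerator are not stated, so values are called positive or negative, no folds are given and no direction with salt is drawn. A pair value is the mean of its 2 median-centred arrays. An array held 877 to 1412 probes, and precision is limited by the 3 rat pairs in each group. The slide numbers of either SS group do not mix with those of any other group, so where SS is compared, the group and the order of slides cannot be told apart. In bulk kidney RNA, fewer cells of a type and less RNA per cell cannot be told apart.

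Glycolysis turns glucose into pyruvate, and hexokinase, aldolase and lactate dehydrogenase stand at its start, its middle and its end. Hk1 encodes the widely expressed hexokinase that phosphorylates glucose. Aldoa encodes the aldolase that splits fructose bisphosphate. Ldhb encodes the subunit of lactate dehydrogenase that is abundant in heart and kidney and interconverts lactate and pyruvate. In the kidney the proximal tubule makes glucose and burns fatty acids, while the thick ascending limb, distal tubule and collecting duct break glucose down.

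The genes lie on rat chromosomes 20 (Hk1), 1 (Aldoa) and 4 (Ldhb), none of them the chromosome exchanged in the consomic strain. One promoter window is shown per gene, because all 3 genes had their highest group mean in SS-13BN/Mcw at 3 days, as did 26.2% of 701 probes. Each is the window farthest downstream among those RefSeq gives for build GRCr8, from 250 bases before to 50 after a transcript start, 5′ to 3′ on the minus strand. They are chr20:30842023-30842322 for Hk1, chr1:190836728-190837027 for Aldoa and chr4:177177359-177177658 for Ldhb. Capitals mark ACGTG or GCGTG, the core letters bound by hypoxia-inducible factors, searched on both strands.
Hk1: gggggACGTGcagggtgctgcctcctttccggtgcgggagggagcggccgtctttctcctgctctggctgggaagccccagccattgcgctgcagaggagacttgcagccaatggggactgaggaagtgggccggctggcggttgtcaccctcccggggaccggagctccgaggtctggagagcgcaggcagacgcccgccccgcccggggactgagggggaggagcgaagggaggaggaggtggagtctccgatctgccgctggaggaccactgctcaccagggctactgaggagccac
Aldoa: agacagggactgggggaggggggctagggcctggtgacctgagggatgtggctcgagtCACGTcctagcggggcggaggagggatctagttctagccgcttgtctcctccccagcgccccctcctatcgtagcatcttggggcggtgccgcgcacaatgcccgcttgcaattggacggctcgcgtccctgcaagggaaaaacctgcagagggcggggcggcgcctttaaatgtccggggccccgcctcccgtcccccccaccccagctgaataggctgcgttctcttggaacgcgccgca
Ldhb: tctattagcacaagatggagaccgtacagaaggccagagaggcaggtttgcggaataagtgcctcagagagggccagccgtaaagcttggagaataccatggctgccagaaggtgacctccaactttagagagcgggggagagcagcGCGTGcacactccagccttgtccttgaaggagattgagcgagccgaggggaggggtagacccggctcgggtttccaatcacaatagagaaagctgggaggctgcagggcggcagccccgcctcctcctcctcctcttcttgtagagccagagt
Each of the 3 windows held 1 match. Hk1 had ACGTG at base 6, Aldoa had ACGTG on the opposite strand at base 59 and Ldhb had GCGTG at base 148, counted from the 5′ end. Of 33469 rat promoter windows of 300 bases, 41.6% held either motif, 19.3% ACGTG and 29.7% GCGTG. The other window of Hk1 and the other 2 of Aldoa held no match, which says only that these letters are not in them. The windows shown are thus the ones with a match, so their matches cannot be set against the 41.6%.

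Hk1 lay on the positive side in 11 of 12 rat pairs and was most even in SS-13BN/Mcw at 3 days. Its pair values were 0.046, 0.018 and 0.18 in SS at 3 days, and 0.25, 0.27 and 0.26 in SS-13BN/Mcw at 3 days. Overnight they were 0.050, 0.061 and 0.20 in SS, and 0.18, -0.014 and 0.22 in SS-13BN/Mcw. Pair 3 was the highest of SS at both times, and pair 2 of SS-13BN/Mcw overnight was the only one below 0. Ordered by mean, Hk1 stood at 0.26 ± 0.011 in SS-13BN/Mcw at 3 days, 0.13 ± 0.12 in SS-13BN/Mcw overnight, 0.10 ± 0.082 in SS overnight and 0.082 ± 0.087 in SS at 3 days (SD, n = 3 each). The first of these did not overlap the second. The 3 lower groups overlapped one another.

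**Figure D1:**
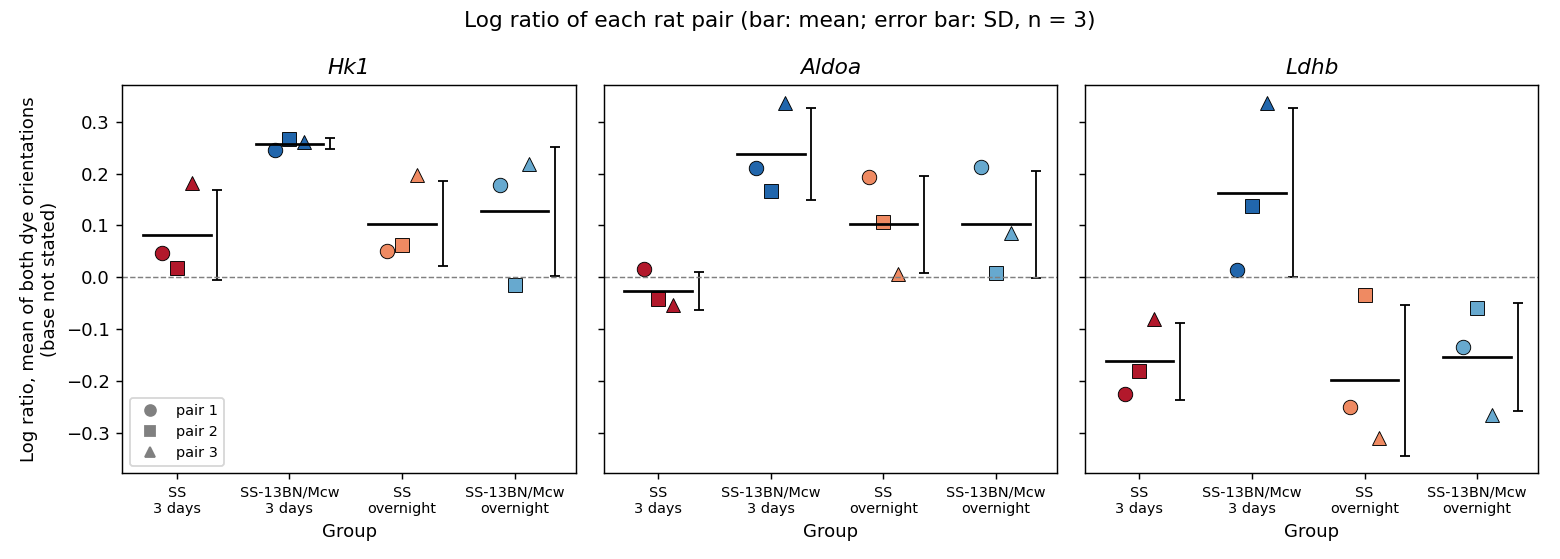
Log ratio of Hk1, Aldoa and Ldhb (vertical axis, base not stated) in each of 3 rat pairs per group (horizontal axis), where points are pair values, bars are means and error bars are SD. In SS-13BN/Mcw at 3 days Hk1 sits between 0.25 and 0.27, Aldoa between 0.17 and 0.34 and Ldhb between 0.013 and 0.34, each above all 3 pairs of SS at 3 days.

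Aldoa was near 0 in SS at 3 days and positive in all pairs of the other 3 groups. Its pair values were 0.015, -0.041 and -0.053 in SS at 3 days, and 0.21, 0.17 and 0.34 in SS-13BN/Mcw at 3 days. Overnight they were 0.19, 0.11 and 0.0067 in SS, and 0.21, 0.0086 and 0.085 in SS-13BN/Mcw. The overnight groups covered nearly the same range, and each held 1 pair near 0. The means were 0.24 ± 0.088 in SS-13BN/Mcw at 3 days, 0.10 in both overnight groups (SD 0.094 for SS and 0.10 for SS-13BN/Mcw) and -0.026 ± 0.037 in SS at 3 days (SD, n = 3 each). Neighbours in this order overlapped, and only the highest and the lowest group stood fully apart.

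Ldhb was negative in 9 of 12 pairs, and the 3 positive ones were those of SS-13BN/Mcw at 3 days. All 3 genes were positive in the 3 pairs of that group, as were 19.4% of 753 probes. Its pair values were -0.22, -0.18 and -0.080 in SS at 3 days, and 0.013, 0.14 and 0.34 in SS-13BN/Mcw at 3 days. Overnight they were -0.25, -0.034 and -0.31 in SS, and -0.13, -0.060 and -0.27 in SS-13BN/Mcw. The positive group ranged from near 0 in pair 1 to its highest value in pair 3, and without pair 3 its mean was 0.076. The means were 0.16 ± 0.16 in SS-13BN/Mcw at 3 days, -0.15 ± 0.10 in SS-13BN/Mcw overnight, -0.16 ± 0.074 in SS at 3 days and -0.20 ± 0.15 in SS overnight (SD, n = 3 each). The highest group did not overlap the next, and the other 3 overlapped one another.

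The strain comparison at 3 days asks whether the salt change moved the genes differently in the salt-sensitive and the consomic rat. SS stood below SS-13BN/Mcw for each gene. The differences, SS minus SS-13BN/Mcw, were -0.18 ± 0.092 for Hk1, -0.26 ± 0.092 for Aldoa and -0.32 ± 0.11 for Ldhb (SE from limma). The pair values of both strains did not overlap for any of the 3 genes, with SS the lower, which held for 7.1% of 704 probes with all 6 values. These values are among those the genes were chosen on, so nothing is read from that share. By limma, 0 of 824 probes passed this strain comparison after Benjamini-Hochberg adjustment over all probes at 0.05 (percent called 0), while 69 had an unadjusted p under 0.05. Scaling the arrays to equal spread gave 7 calls, quantile normalization 5 and a fit on single arrays 7, and Hk1, Aldoa and Ldhb were not among them.

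Overnight the strains lay close together. Hk1 averaged 0.10 ± 0.082 in SS and 0.13 ± 0.12 in SS-13BN/Mcw, a difference of -0.024 ± 0.095 (SE). Aldoa averaged 0.10 in both strains, and Ldhb differed by -0.046 ± 0.11 (SE). The pair values overlapped for all 3 genes. In this comparison 0 of 1053 probes passed in limma (percent called 0), with 53 at an unadjusted p under 0.05.

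The time comparisons ask how the values at 3 days stood to those overnight. In SS-13BN/Mcw the differences, 3 days minus overnight, were 0.13 ± 0.093 for Hk1, 0.14 ± 0.093 for Aldoa and 0.32 ± 0.11 for Ldhb (SE). Hk1 and Ldhb did not overlap between times, with 3 days the higher, as did 10.2% of 745 probes, and Aldoa overlapped. On the arrays with the low-numbered rat in Cy5, Hk1 and Ldhb did overlap between times (differences 0.024 and 0.20). With that rat in Cy3 they did not (0.24 and 0.43). Matched by their shared low-numbered rat, the Ldhb differences were 0.15, 0.20 and 0.60 for rats 1, 2 and 3. Those of Hk1 were 0.068, 0.28 and 0.043, so rat 2 held most of the difference for Hk1 and rat 3 for Ldhb. In SS the differences were -0.021 ± 0.093 for Hk1, -0.13 ± 0.092 for Aldoa and 0.037 ± 0.11 for Ldhb (SE), and all 3 overlapped between times. Matched by rat, Aldoa in SS gave -0.18, -0.15 and -0.060, lower at 3 days in each. In limma 0 of 897 probes passed in SS-13BN/Mcw and 0 of 880 in SS (percent called 0 in both), with 101 and 17 at an unadjusted p under 0.05.

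Measured against 0, the 3 genes did not pass in any single group. At 3 days 0.34% of probes passed in SS and 2.98% in SS-13BN/Mcw, while overnight it was 1.14% for SS and 10.5% for SS-13BN/Mcw. When arrays were scaled to equal spread or quantile-normalized, Hk1 and Aldoa passed in SS-13BN/Mcw at 3 days, and with values as deposited Hk1 passed there. Of 907 probes 61 passed with equal spread, 61 with quantile normalization and 28 with values as deposited. In the mean of the 4 groups 2 of the 3 genes passed, Hk1 at 0.14 ± 0.033 and Aldoa at 0.10 ± 0.032 (SE), where 13.4% of 822 probes passed as positive. When rats 1 to 3 entered as a block, Hk1 still passed and Aldoa, at 0.10 ± 0.037 (SE), did not. Leaving out 1 pair at a time, Aldoa passed in 5 of 12 fits. Ldhb averaged -0.088 ± 0.039 (SE) over the groups and did not pass. With arrays scaled to equal spread it passed at -0.11, as did 237 of 822 probes in either direction. It also passed with the low-numbered rat in Cy5 alone at -0.39 and in Cy3 alone at 0.22, on the other side of 0. Of all probes 364 of 897 passed in Cy5 alone and 504 of 925 in Cy3 alone. Nothing is read from these calls, since the same values chose the genes.

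The dye orientation shifted Ldhb more than the groups did. With the low-numbered rat in Cy3 Ldhb was positive on 10 of 12 arrays, from -0.057 to 0.68. With that rat in Cy5 it was positive on 0 of 12 arrays, from -0.61 to -0.0013. The gap between both arrays of a pair ran from 0.42 to 0.72 and had the same sign in 12 of 12 pairs, with a mean of 0.61. Of 701 probes on all arrays 7.7% had a larger mean gap. For Hk1 the mean gap was 0.13, exceeded by 72.9% of probes, and for Aldoa 0.088, exceeded by 80.3%.

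**Figure D2:**
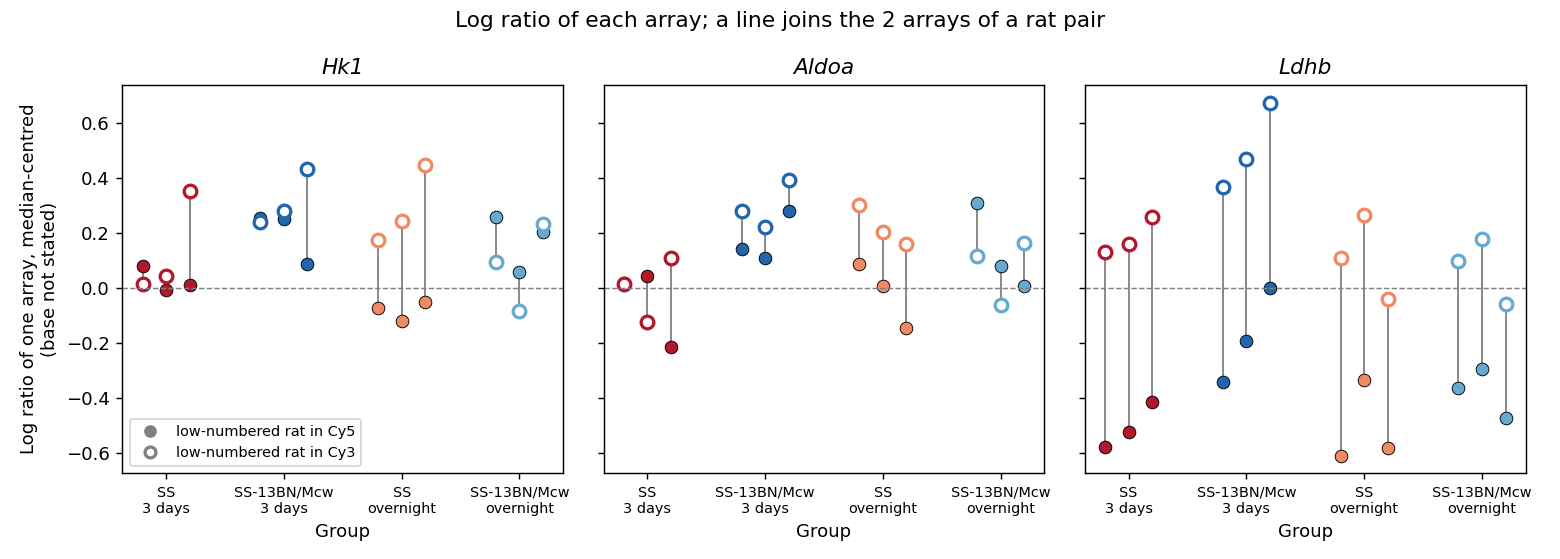
Log ratio of each of 24 arrays (vertical axis, median-centred, base not stated) by group (horizontal axis), where filled points have the low-numbered rat in Cy5, open points have it in Cy3 and a line joins both arrays of a pair. For Ldhb the open point lies above the filled one in all 12 pairs, by 0.42 to 0.72. Both kinds of point have their highest mean in SS-13BN/Mcw at 3 days, where the filled points overlap those overnight.

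Within each orientation the strains at 3 days still stood apart for Aldoa and Ldhb. With the low-numbered rat in Cy5 Ldhb averaged -0.51 in SS and -0.18 in SS-13BN/Mcw, and with it in Cy3 0.18 in SS and 0.50 in SS-13BN/Mcw. The differences were -0.33 and -0.32. For Aldoa they were -0.23 with that rat in Cy5 and -0.30 with it in Cy3. Arrays of both strains did not overlap in either orientation for these 2 genes, with SS the lower, as for 1.42% of 704 probes. Both orientations read the same rat pairs, and the genes were chosen on these values, so nothing is read from that share. Hk1 differed by -0.17 with that rat in Cy5, without overlap, and by -0.18 with it in Cy3, where 1 SS array reached 0.35 and the strains overlapped.

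The pattern rests on the reading that the deposited ratios already run in 1 rat-to-rat direction. Had the ratios been Cy5 over Cy3 throughout, 1 array of each pair would be turned. The differences of SS minus SS-13BN/Mcw at 3 days would then be -0.0057 for Hk1, -0.036 for Aldoa and 0.0031 for Ldhb. Ldhb would stand at 0.34 in both strains at 3 days, and overnight at 0.31 in SS against 0.23 in SS-13BN/Mcw. It would pass against 0 in all 4 groups. Many probes would pass too, 344 of 883 in SS and 299 of 907 in SS-13BN/Mcw at 3 days. Overnight it would be 325 of 1139 in SS and 309 of 1100 in SS-13BN/Mcw. Over all probes the gap between swapped arrays was alike in every pair (r across probes from 0.511 to 0.793 between pairs), and turning makes that shared gap the value.

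**Figure D3:**
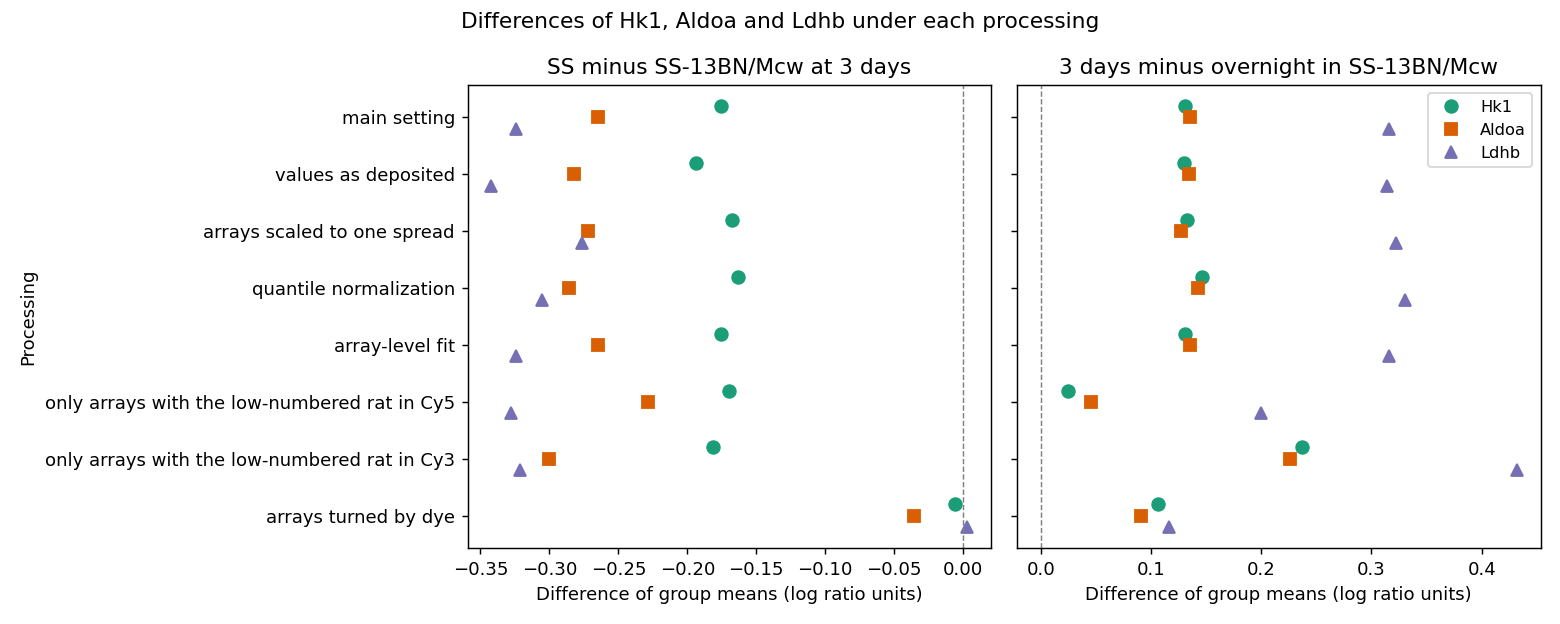
Difference of group means (horizontal axis, log ratio units) for Hk1, Aldoa and Ldhb under 8 ways of processing (vertical axis), left for SS minus SS-13BN/Mcw at 3 days and right for 3 days minus overnight in SS-13BN/Mcw. The left values lie between -0.34 and -0.16 in the upper 7 settings and between -0.036 and 0.0031 with arrays turned by dye.

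Other enzymes of glycolysis were few on the array. The list was chosen with earlier results of these data known. Of its 29 other genes 9 had a probe with a value and 3 to 5 could be tested in a comparison, and 0 passed in any of the 9 comparisons by limma. Of all probes 0% passed in the 4 differences, 0.34% to 10.5% in the single groups and 28.5% in the mean of the 4 groups, so 0 of so few genes is no result about them. Their median at 3 days was -0.025 in SS and -0.019 in SS-13BN/Mcw, against -0.0054 and -0.0030 over all probes tested. Overnight it was 0.0025 in SS and -0.015 in SS-13BN/Mcw, against 0.0071 and -0.0016 over all probes.

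Pfkl, the liver-type phosphofructokinase, averaged -0.059 ± 0.30 in SS and -0.13 ± 0.20 in SS-13BN/Mcw at 3 days (SD, n = 3 each), with both signs in each group. Pfkm, the muscle-type form, stood at -0.18 ± 0.050 in SS overnight (n = 3) and near 0 in the other groups. Eno1, the main enolase, averaged -0.065 ± 0.16 in SS and 0.088 ± 0.052 in SS-13BN/Mcw at 3 days (SD, n = 3 each), and its pair values overlapped. Of the 3 genes tested in the strain comparison at 3 days, Eno1 was the lower in SS, and Pfkl and Pfkm were the higher in SS by less than their spread. Ldha, the partner subunit of Ldhb, had 1 pair value in all, and Gapdh and Pkm were not among the measured probes.

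In SS-13BN/Mcw overnight 3 genes on either side of glycolysis passed against 0, each on the negative side. Slc37a4, which carries glucose 6-phosphate into the endoplasmic reticulum for release as glucose, had pair values of -0.51, -0.34 and -0.90 there (-0.58 ± 0.16, SE, adjusted p = 0.0473). Pdk2, a kinase that shuts off pyruvate dehydrogenase, had -0.33, -0.22 and -0.25 (-0.27 ± 0.070, SE, adjusted p = 0.0321). Slc16a7, a transporter of pyruvate and lactate, had -0.16, -0.40 and -0.26 (-0.27 ± 0.072, SE, adjusted p = 0.0321). They were 1 of 5 tested genes of gluconeogenesis and 2 of 5 of pyruvate and lactate handling in limma, where 7.36% of all probes passed as negative. These calls were not stable: with this group fitted alone all 3 were lost (adjusted p = 0.0751, 0.127 and 0.135 in limma) with 0 of 1100 probes passing. Without pair 3 all 3 were lost too and 12 probes passed, against 116 with all pairs. Without pair 2 all 3 were also lost while 47 probes passed. Without pair 1 Slc37a4 and Pdk2 were lost while 90 probes passed. With values as deposited Slc37a4 did not pass (adjusted p = 0.0521 by limma). In the mean of the 4 groups the same 3 genes passed, Slc37a4 at -0.37, Pdk2 at -0.14 and Slc16a7 at -0.17 (adjusted p = 0.0139, 0.01 and 0.00391 by limma), where 15.1% of probes passed as negative. Slc37a4 no longer passed there without pair 1 of SS or pair 3 of SS-13BN/Mcw at 3 days (adjusted p = 0.0549 and 0.0632 by limma). With the low-numbered rat in Cy5 alone, the mean of the 4 groups was -0.0023 for Pdk2 and 0.10 for Slc16a7, and neither passed. In Cy3 alone it was -0.28 and -0.45, and both passed. Slc37a4 passed in either orientation, at -0.29 and -0.44. Overnight none of the 3 passed in Cy5 alone (-0.59, -0.15 and 0.002), while in Cy3 alone all passed (-0.58, -0.39 and -0.55). Slc16a7 overnight was also lost with equal spread or quantile normalization.

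Glucose carriers had 0 of 3 or 4 tested genes past the threshold in limma in each comparison, which with so few genes is no result about them. Slc2a1, the basolateral glucose carrier of most cells, averaged -0.056 ± 0.11 in SS and 0.058 ± 0.039 in SS-13BN/Mcw at 3 days (SD, n = 3 each). Txnip, an inhibitor of glucose uptake, spread from -0.69 to 0.42 in SS and from -0.010 to 0.51 in SS-13BN/Mcw at 3 days, and the strains overlapped. Tkt of the pentose phosphate pathway and Gyg1 of glycogen synthesis were the 1 tested gene of their lists each and did not pass in any comparison.

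**Figure D4:**
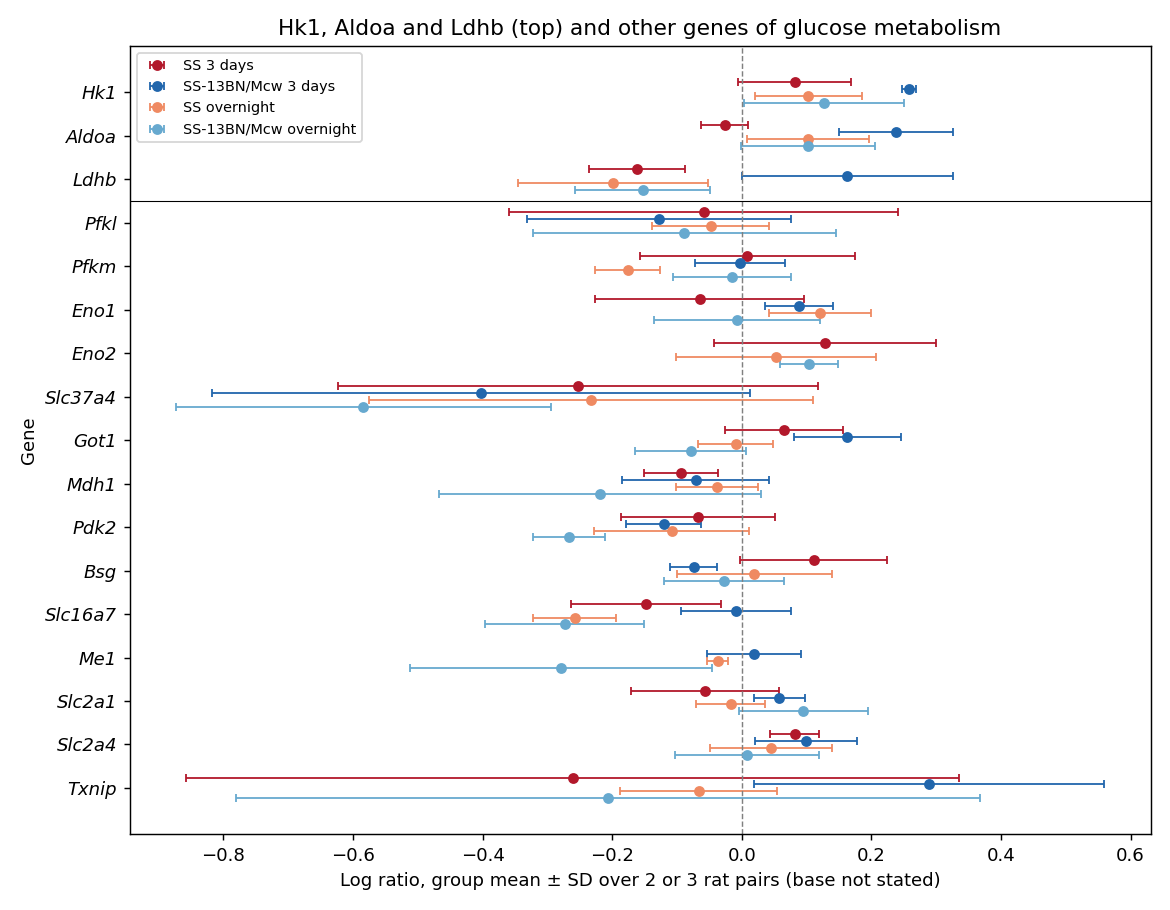
Group means and SD over 2 or 3 rat pairs (horizontal axis, log ratio, base not stated) of Hk1, Aldoa and Ldhb above the line and of 14 other genes of glucose metabolism below it (vertical axis), by group. Hk1, Aldoa and Ldhb have their highest mean in SS-13BN/Mcw at 3 days, while Slc37a4, Pdk2 and Slc16a7 lie lowest in SS-13BN/Mcw overnight, at -0.58, -0.27 and -0.27.

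Markers of tubule segments are given beside the 3 genes, and 0 of any list passed in a strain or time comparison by limma. Markers of the collecting duct with a value in all pairs (Scnn1a, Aqp3 and Hsd11b2, 3 of 11 listed) averaged -0.11 to -0.028 in the pairs of SS and 0.13 to 0.42 in those of SS-13BN/Mcw at 3 days. Overnight they ran from -0.18 to -0.00010 in SS and from -0.11 to -0.095 in SS-13BN/Mcw. Markers of the thick ascending limb and distal tubule (6 of 13 listed) averaged -0.21 to 0.00090 in SS and 0.018 to 0.13 in SS-13BN/Mcw at 3 days, and were below 0 in every overnight pair. For SS minus SS-13BN/Mcw at 3 days, all 3 tested markers of the collecting duct and all 6 of the thick limb and distal tubule were negative (medians -0.26 and -0.15, against 0.012 over all probes), and 0 passed in limma. Against 0 in SS-13BN/Mcw at 3 days 1 marker of each list passed in limma, Scnn1a of the sodium channel ENaC at 0.28 ± 0.062 (SE, adjusted p = 0.0293), and Atp1b1 of the sodium-potassium ATPase at 0.41 ± 0.091 (SE, adjusted p = 0.0351), where 2.98% of all probes passed. Both calls ended without pair 2 (adjusted p = 0.137 and 0.198 in limma) and without pair 3 (0.332 and 0.422), each of which left 0 of 907 probes, and that of Scnn1a also without pair 1 (0.064). Both were also lost with that group fitted alone (0.0952 and 0.0729) and with the low-numbered rat in Cy5 alone (0.0546 and 0.151). In Cy3 alone Scnn1a was lost (0.0656) and Atp1b1 passed. Atp1b1 does not stand for its list, of which 4 of 6 tested markers were positive in that group. In SS-13BN/Mcw overnight Slc12a1 passed as negative at -0.33, where 7.36% of all probes did. In the mean of the 4 groups Atp1b1 passed as positive at 0.28. Slc12a1 at -0.24 and Ppp1r1a at -0.21 passed there as negative. Of all probes 13.4% passed in that mean as positive and 15.1% as negative. The part of these cells in the values of Hk1, Aldoa and Ldhb was not tested.

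Proximal tubule markers (8 genes with all pairs) did not follow that order. They averaged -0.59 ± 0.53 in SS and -1.18 ± 0.18 in SS-13BN/Mcw at 3 days, and -0.57 ± 0.22 in SS and -1.34 ± 0.66 in SS-13BN/Mcw overnight (SD, n = 3 each). Against 0, 9 of 14 tested proximal markers passed as negative in SS-13BN/Mcw at 3 days and 13 of 15 overnight, and 0 of 12 and 0 of 14 passed in SS, by limma. Of all probes 2.98% passed in SS-13BN/Mcw at 3 days and 7.36% as negative overnight. The proximal count in SS-13BN/Mcw at 3 days fell to 0 of 14 without pair 2 or pair 3 and to 4 without pair 1, and the overnight count fell to 4 of 15 without pair 3 and to 0 with that group fitted alone. The 0 in SS depended on the setting. Quantile normalization gave 5 of 12 in SS at 3 days and 8 of 14 overnight, where 18 of 883 and 67 of 1139 probes passed. Single-array fits gave 6 at both times, and equal spread gave 1 and 6. With the SS group fitted alone it was 0 at 3 days and 7 of 14 overnight. In SS it was 2 at both times in Cy5 alone, and 3 at 3 days and 5 overnight in Cy3 alone. With arrays turned by dye it was 4 of 12 at 3 days and 4 of 14 overnight in SS. In SS-13BN/Mcw it was then 3 of 14 and 2 of 15, so the strains no longer differed as above. In the mean of the 4 groups 12 of 12 passed as negative, against 15.1% of all probes. For SS minus SS-13BN/Mcw at 3 days all 12 tested proximal markers were positive (median 0.62), opposite in sign to Hk1, Aldoa and Ldhb, and 0 passed. Their part in the values of the 3 genes was not tested either. The mean of markers of endothelium and stroma (4 genes) was lowest in SS-13BN/Mcw at 3 days, at 0.033 to 0.099, against 0.18 to 1.03 in SS at 3 days. Col1a1, Tagln and Vim followed that order between strains. Kdr did not, at 0.20 ± 0.24 in SS-13BN/Mcw and -0.044 ± 0.22 in SS at 3 days (SD). For SS minus SS-13BN/Mcw at 3 days 4 of 7 tested genes of the whole list were positive. Against 0 in SS overnight Col3a1 passed at 0.71 ± 0.45 (SD, n = 3), where 1.14% of all probes passed. That call ended without pair 1, pair 2 or pair 3 (adjusted p = 0.409, 0.0905 and 0.075 by limma). In the mean of the 4 groups Col3a1, Tagln, Col1a1 and Vim passed as positive, 4 of 7 tested, against 13.4% of all probes. Vim did not pass there in Cy3 alone (adjusted p = 0.263 by limma). Hbb, a globin of red cells, which depend on glycolysis, overlapped between strains at 3 days, from -0.13 to 0.018 in SS and from -0.12 to 0.42 in SS-13BN/Mcw. Too few leukocyte markers had values to give a level.

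**Figure D5:**
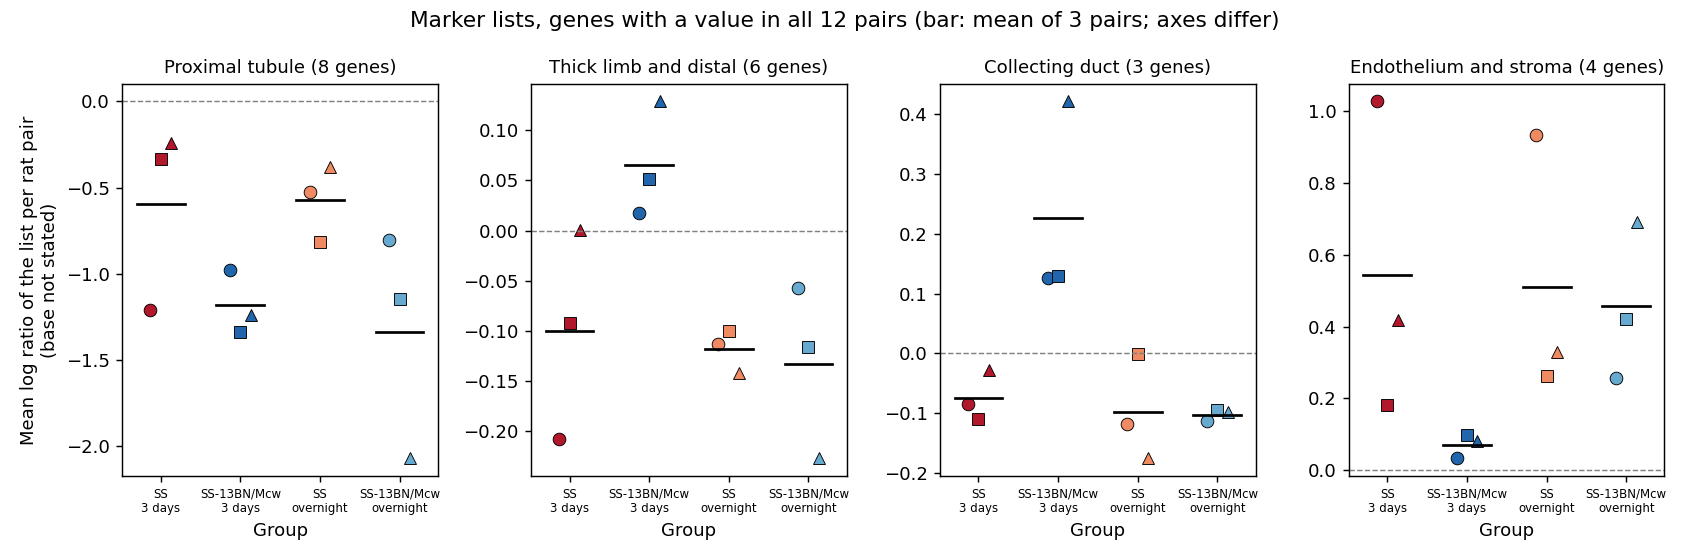
Mean log ratio per rat pair (vertical axis, base not stated, a scale of its own in each panel) of 4 marker lists by group (horizontal axis), where bars are means of 3 pairs. The mean of the collecting duct markers is positive only in SS-13BN/Mcw at 3 days (0.13 to 0.42), and that of the proximal tubule markers is negative in all pairs of all groups. Single genes differed: Scnn1a averaged 0.073 in SS at 3 days. Fbp1, a proximal marker left out for missing pairs, averaged 0.15 in SS overnight.

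None of the 3 genes most like Hk1, Aldoa or Ldhb over the 12 pairs was on the glycolysis list. Of its other genes only Pfkl, Pfkm and Eno1 had a value in all 12 pairs, so this is no result about glycolysis. Likeness was Pearson's r of pair values among 597 other named probes with a value in all 12 pairs, which share arrays, rats and the median centring, and it is given without a test. Ldhb was closest to Ppp1r1a, a phosphatase inhibitor of the thick ascending limb (r = 0.968), then to Aldh1a1, which makes retinoic acid (r = 0.908), and to Acsl1, which activates fatty acids (r = 0.878). Ppp1r1a averaged -0.31 ± 0.086 in SS and 0.015 ± 0.12 in SS-13BN/Mcw at 3 days, and -0.32 ± 0.17 in SS and -0.23 ± 0.13 in SS-13BN/Mcw overnight (SD, n = 3 each).

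Hk1 was closest to Slc12a1, the sodium-potassium-chloride cotransporter of the thick ascending limb (r = 0.779), then to the calcium-dependent membrane protein gene Anxa6 (r = 0.756) and the cytochrome gene Cyp2c6v1 (r = 0.726). Slc12a1 was negative in all 4 group means, from -0.33 to -0.10. That sign depended on the dye orientation. The mean of the 4 groups for Slc12a1 was 0.11 with the low-numbered rat in Cy5 alone and -0.60 in Cy3 alone. Aldoa was closest to the RNA helicase gene Ddx39b (r = 0.775), the receptor phosphatase gene Ptprf (r = 0.77) and the growth factor gene Pdgfa (r = 0.758). Pdgfa averaged -0.23 ± 0.062 in SS and 0.44 ± 0.29 in SS-13BN/Mcw at 3 days (SD, n = 3 each). Among themselves the 3 genes had r of 0.606 between Aldoa and Ldhb, 0.513 between Hk1 and Aldoa and 0.441 between Hk1 and Ldhb. These cannot be weighed against the r above, which were picked as the highest of 597.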

How the data were processed

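The authors deposited 1 log ratio per probe and array, a score for which the sources used here give no base, numerator or earlier steps. Deposited values were centred on each array's mean (largest absolute mean 0.000822, largest absolute median 0.067). Here every array had its median subtracted, and a pair value is the mean of its dye-swapped arrays. No array's sign was changed, because the swapped arrays had positive r across probes in all 12 pairs once the mean of their orientation was taken out (0.169 to 0.825), and in 8 before that (-0.0595 to 0.749). Probe symbols came from the platform annotation: 1426 of 1766 measured probes had 1 symbol, 29 several and 311 none, and 1421 symbols were updated by gene number.

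Limma 3.58.1 with statmod 1.5.0 in R 4.3.3 fitted 1 coefficient per group over 12 pairs (8 residual degrees of freedom). Tests were two-sided, over probes with at least 2 of 3 pairs per group, with Benjamini-Hochberg adjustment at 0.05. The spread behind each p-value is that among pairs of rats. Deviations of pairs with the same low-numbered rat correlated between times at 0.494, -0.0241 and 0.62 in SS and 0.389, 0.321 and 0.259 in SS-13BN/Mcw. Labels repeat these rat numbers at both times, which is taken as the link. The fits were tested on simulated data. Genes and lists were chosen with earlier results of these data known. Named were genes of the glucose lists, those past the threshold always, the 3 most alike per gene, and markers past the threshold. Proximal tubule markers past it are given as counts. Tkt, Gyg1, Hbb, Aqp3, Hsd11b2 and Kdr were named after their values were seen. Sequences came from RefSeq, build GRCr8, by symbol, and matched for 3 of 3 genes. Figures used Python 3.11.15 with matplotlib 3.10.9.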

Additional observations from a re-analysis of the deposited data

Results flagged for a closer look

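Ldhb at 3 days had opposite signs in the strains, negative in 3 of 3 pairs of SS and positive in 3 of 3 pairs of SS-13BN/Mcw (difference -0.32). Ldhb in SS-13BN/Mcw was likewise positive in 3 of 3 pairs at 3 days and negative in 3 of 3 pairs overnight (difference 0.32). Neither difference of signs was tested on its own, since Ldhb was chosen with these values in view, and pair 1 of SS-13BN/Mcw at 3 days stood at only 0.013. The exact values of these differences were -0.3245 and 0.3156 in log ratio units.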

How the results depend on the processing

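With arrays turned by dye, SS minus SS-13BN/Mcw was -0.0057 for Hk1, -0.036 for Aldoa and 0.0031 for Ldhb at 3 days, and 0.23, 0.15 and 0.086 overnight. Under that setting 3 days minus overnight was -0.13 for Hk1 in SS and 0.12 for Ldhb in SS-13BN/Mcw. Turned group values changed sign to 0.025 for Aldoa and 0.34 for Ldhb in SS at 3 days, 0.31 for Ldhb in SS overnight, -0.046 for Hk1, -0.0295 for Aldoa and 0.23 for Ldhb in SS-13BN/Mcw overnight. With only arrays that had the low-numbered rat in Cy5, SS minus SS-13BN/Mcw overnight was -0.26 for Hk1 and -0.15 for Aldoa, 3 days minus overnight was 0.11 for Hk1 and -0.034 for Aldoa in SS and 0.024 for Hk1 in SS-13BN/Mcw, and the SS overnight means were -0.082 for Hk1 and -0.017 for Aldoa. With only arrays that had it in Cy3, these were 0.21 and 0.15, then -0.15, -0.22 and 0.24, and Ldhb stood at 0.18 in SS at 3 days, and overnight at 0.11 in SS and 0.072 in the consomic strain. The mean of the 4 groups for Aldoa did not pass when turned (0.044) or in Cy5 alone (0.060), nor did that of Hk1 in Cy5 alone (0.079), and that of Ldhb passed when turned (0.31). In that mean 568 of 822 probes passed when turned. Single orientations hold the gap between swapped arrays by construction, and turning makes that gap the value. Whether the gap is an effect of the dyes was not tested. The count of other glycolysis genes past the threshold was 0 throughout, except 1 in SS overnight when turned, 1 in SS overnight and 1 in the mean of the 4 groups with the low-numbered rat in Cy3, and 0 to 1 in SS-13BN/Mcw overnight with 1 pair left out. Leaving out each pair in turn, SS minus SS-13BN/Mcw at 3 days ran from -0.23 to -0.14 for Hk1, -0.30 to -0.22 for Aldoa and -0.40 to -0.24 for Ldhb. Likewise 3 days minus overnight in SS-13BN/Mcw ran from 0.060 to 0.18, 0.087 to 0.19 and 0.23 to 0.39. With the replicate block of the low-numbered rat the differences were as before, SS minus SS-13BN/Mcw at 3 days being -0.18, -0.26 and -0.32, and among the 3 genes the block changed only the call of Aldoa in the mean of the 4 groups. With values as deposited, equal spread, quantile normalization, single-array fits, the compared groups alone or all 3 pairs required, each difference of Hk1, Aldoa and Ldhb at 3 days between strains and between times in SS-13BN/Mcw kept its sign.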
